A study of Drosophila melanogaster with 4 samples.

Results

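The regions described are the 383 enriched H2Bub domains that measured 20 kb or more in the authors' combined list, out of 6056 enriched regions in that list. They were chosen by width alone, as the end minus the start plus 1 of each deposited region, on any sequence. H2Bub was mapped by ChIP-seq in the fruit fly Drosophila melanogaster, strain Oregon-R, genotype wild type, with the antibody NRO3. The sample titles name head nuclei as the material, and the flies were of the stage labelled mixed adult. The samples are 2 ChIP samples, numbered replicates 1 and 2, and 2 inputs, and all came from population cages. No treatment or mutant was compared, and each replicate is labelled by number only, so any agreement between them may be technical. The deposited data used here are lists of regions (called clusters in the files) with a start, an end and a score, 1 list per ChIP replicate and 1 combined list. Because these lists hold no read counts, depth is unknown. The authors' score has no stated scale, and it is used only to rank and describe regions within a list.

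Ubiquitylation of histone H2B in its C-terminal tail is laid down by the Bre1 ligase together with Rad6 during transcription, and it lies mainly over the bodies of transcribed genes. It is known for its links to elongation by RNA polymerase II and to the methylation of histone H3 by the COMPASS and Dot1 enzymes. A region enriched without a break over many kilobases can span a single long gene or several genes side by side. Which genes lie under the domains was not analysed here, because the files place regions on release 5 of the fly genome while the gene annotation given for this work follows release 6.

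The wide domains were 6.32% of the enriched regions and held 33.6% of the enriched bases, 13.5 of 40.3 Mb. Their widths ran from 20013 to 106499 bp, with a median of 30077 bp and quartiles of 24405 and 40993 bp. In the lower part of this range, 105 measured 20 to 25 kb, 85 measured 25 to 30 kb and 85 measured 30 to 40 kb. Another 79 measured 40 to 60 kb, 17 measured 60 to 80 kb and 12 more than 80 kb. Widths ran on across the minimum without a gap. The 5 narrowest members, at 20013, 20105, 20113, 20117 and 20123 bp, lay on 3R, 2L, 2R, 2R and 3L with scores from 0.717 to 1.39. The 5 regions just under the minimum, at 19977, 19853, 19831, 19733 and 19691 bp, lay on X, X, 2L, 3L and 2L with scores from 0.941 to 1.12. As width chose the members, these values are a description with no test.

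All 383 domains lay on the X chromosome and the 4 large autosomal arms. The 170 enriched regions elsewhere, 76 of them on chromosome 4, were at most 13199 bp wide. X carried 66 domains, 2L 79, 2R 67, 3L 74 and 3R 97. Density was 2.94 domains per Mb for X, 3.02 for 3L, 3.17 for 2R, 3.43 for 2L and 3.48 for 3R. They took up 9.84% of X, 10.9% of 3L, 11.2% of 2R, 11.9% of 2L and 12.7% of 3R, and both measures put the arms in the same order. Median width differed little between arms, from 29141 bp on 2L to 30343 bp on 3R. Each of the 5 arms held a domain of over 80 kb, and the widest measured 84859 bp on 2L, 88487 bp on 3R, 89895 bp on X, 97081 bp on 2R and 106499 bp on 3L.

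The 2 Mb nearest the centromere on each arm held 11 of the domains, 6 of them on 3R, 2 on 2R and 1 each on X, 2L and 3L. This is 1.10 per Mb, against 3.42 per Mb in the parts of the arms away from both ends. The 2 Mb at the telomere end of the arms held 33 domains, or 3.30 per Mb, with 9 each on X and 2L. Mappability of the sequence was not measured.

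Cut into windows of 1 Mb, the 5 arms gave 117 full windows with a median of 3 domains each, counted by their midpoints. The densest window, on 2R from 6000001 to 7000000, held 9 domains over 330011 bp. Another 6 windows held 7 domains each: 2L from 9000001 and from 13000001, 3L from 2000001, and 3R from 5000001, 10000001 and 23000001. In all, 24 windows held 5 or more domains and together 141 of the 378 domains in full windows. There were 7 windows with none. Of these, 2L from 22000001, 2R from 1, 3L from 23000001 and X from 21000001 lay at the centromere ends, where combined regions covered 6.17, 8.62, 6.64 and 20.2% of them. In the 3L window from 18000001 combined regions covered 18.4%. The windows on 3R from 7000001 and from 11000001 also held no domain, yet combined regions covered 31.6 and 27.6% of them.

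Neighbouring domains on an arm were a median of 177 kb apart, with quartiles of 62.2 and 383 kb over 378 pairs. Distances stretched from 143 bp to 1.54 Mb. The 6 stretches over 1 Mb were not free of H2Bub. The longest, on 3R from 6841977 to 8377701, held 74 narrower regions over 27.5% of its length, the widest of 19415 bp. The next, on X from 5120323 to 6390875, held 75 regions over 32.8%, at most 18227 bp wide. The third, on 3R from 10957693 to 12098221, held 62 regions over 28.1%, at most 19107 bp wide. Over the 5 arms together, combined regions covered 33.4%. Regions within these stretches are under the width minimum by definition, because the stretches lie between neighbouring wide domains.

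**Figure D1:**
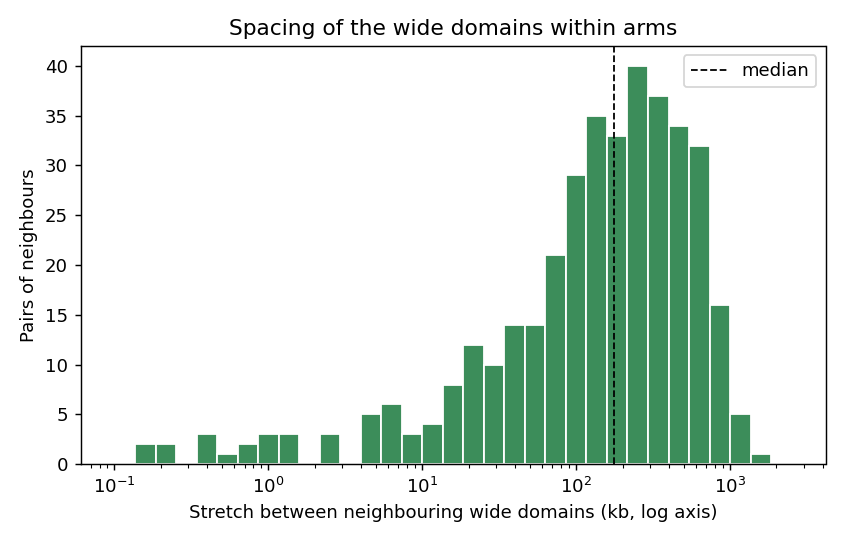
Histogram of the stretch between neighbouring wide domains of the same arm (kb, log axis; 378 pairs), with the number of pairs on the y axis and the median of 177 kb as a dashed line. The pairs pile up between the quartiles of 62.2 and 383 kb, and 13 pairs are under 1 kb apart.

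At the other end of the scale, 39 pairs of domains stood next to each other with no enriched region between them, a median of 4239 bp apart. In 3 places 3 domains followed each other in this way: on 2L from 3965374 to 4089494, on 2L from 18214286 to 18385526 (171241 bp in all) and on 3L from 14762228 to 14846692. In 22 pairs the domains were under 5 kb apart and in 13 under 1 kb.

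The 5 closest pairs were split by 143 to 379 bp. On 3R, domains from 16226690 to 16290372 (score 1.43) and from 16290516 to 16310728 (score 1.24) were 143 bp apart. On 3L, domains from 2509642 to 2531476 (score 0.663) and from 2531646 to 2554708 (score 1.22) were 169 bp apart. On 2L, domains from 12455044 to 12520464 (score 1.55) and from 12520706 to 12547166 (score 1.49) were 241 bp apart. Scores on both sides of the break were thus nearly equal on 2L and differed most on 3L. On X, domains from 14733346 to 14779782 (score 1.28) and from 14780028 to 14803770 (score 0.864) were 245 bp apart. The fifth pair, on 3R from 2214890 to 2243584 (score 1.75) and from 2243964 to 2273808 (score 1.72), was 379 bp apart. The widest near-continuous stretch was on X, where domains of 61757 and 61187 bp with 477 bp between them ran from 4996902 to 5120322, a span of 123421 bp. That is wider than any single domain. In none of the 13 pairs under 1 kb did a cluster of either replicate bridge the break. A bridge was rare at all short breaks: over the 5 arms, 63 of the 1815 stretches of under 1 kb between combined regions were bridged in either replicate (3.47%). The 0 of 13 is near this background and shows nothing particular to pairs of wide domains. Between a wide domain and a narrower region 11 of 197 such stretches were bridged (5.58%), and between narrower regions 52 of 1605 (3.24%). This difference was not tested.

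Beside a wide domain, the stretch up to the next enriched region had a median of 4121 bp, against 3243 bp beside regions of 10 to 20 kb and 2593 bp beside regions under 10 kb. A stretch of over 20 kb stood on 24.7% of the sides of wide domains, against 17.5% for regions of 10 to 20 kb and 16.6% for regions under 10 kb. A stretch of under 1 kb stood on 29.1% of sides, against 28.4% and 31.4% for those classes. In the first kb outside a wide domain 17.8% of bases lay in other enriched regions, rising to 41.5% at 5 to 10 kb and back to 34.4% at 50 to 100 kb. For regions of 10 to 20 kb the values at the same distances were 17.1, 43.8 and 35.6%. None of these differences between classes was tested.

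Scores of the wide domains ran from 0.625 to 2.23 with a median of 1.28, against a median of 0.594 for the 5673 narrower regions. The median domain stood at percentile 88.8 of the combined list, and the others at 46.8. Of the 383, 177 lay above percentile 90, 57 below percentile 75 and 1 below the median of the list. Of the first 100 scores in the list, 28 belonged to wide domains, which were 6.32% of all its regions. Median score rose with width from class to class, with the largest steps among narrow regions. Median scores were 0.481 at 1 to 5 kb, 0.922 at 5 to 10 kb and 1.13 at 10 to 20 kb, and then 1.23 at 20 to 30 kb, 1.30 at 30 to 40 kb and 1.40 above 40 kb. Within a class, Spearman's rho between width and score was 0.62 at 1 to 5 kb, 0.23 at 5 to 10 kb and 0.09 at 10 to 20 kb. It was 0.06 at 20 to 30 kb, 0.01 at 30 to 40 kb and 0.02 above 40 kb (190, 85 and 108 domains in the last 3 classes). The classes span unlike ranges of width, so their rhos are not directly comparable. Over all 383 domains rho was 0.20. Width and score come from the same calls on the same reads, so these values are a description.

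The 10 domains with the highest score were 20315 to 43833 bp wide, and no domain among the 10 widest was one of them. The domain on 3L from 1575948 to 1602882 led with 2.23, at a rank of 6 in the whole list, and each replicate called it as 2 clusters. Next came 2 domains near the telomere end of 2L, from 161614 to 202390 with 2.18 and from 922254 to 958186 with 2.14. The domain on 3R from 23390072 to 23411762 had 2.04 and the one on 3L from 4335442 to 4361938 had 2.03. Then followed 3R from 20054456 to 20074770 with 1.99, 3L from 8441096 to 8465136 with 1.97 and 3R from 18576030 to 18619466 with 1.97. The last of the 10 were 2L from 9176170 to 9219038 with 1.96 and 3R from 22624040 to 22667872 with 1.95. Of these 10, 8 were a single cluster in both replicates, and cover was at least 93.3% in replicate 1 and 97.0% in replicate 2.

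The 10 widest domains had scores from 1.04 to 1.84. The widest, 106499 bp on 3L from 22294998 to 22401496, had a score of 1.74 and was a single cluster in both replicates, with 99.4% cover in replicate 1. The next, 97081 bp on 2R from 15422132 to 15519212 (score 1.35), was 3 clusters in replicate 1 and 5 in replicate 2. Other wide domains on 2R, from 17281122 to 17374650 (score 1.84) and from 9509968 to 9601694 (score 1.22), were single clusters in replicate 1 and 2 and 3 clusters in replicate 2. These 4 domains were of similar width but came out in different numbers of clusters. The domain on X from 12097518 to 12187412 (89895 bp, score 1.79) was 3 clusters in replicate 1 and 2 in replicate 2. The one on 3R from 13745012 to 13833498 (88487 bp, score 1.52) was 1 and 2 clusters. Cluster number did not follow score across all 10: the 2R domain with score 1.22 had fewer clusters than that with 1.35. The 3 lowest scores of the 10 were on 3L, in the domains with the most clusters summed over both replicates. The one from 19136572 to 19228642 (92071 bp, score 1.04) was 8 and 6 clusters, the one from 5182022 to 5269606 (87585 bp, score 1.06) was 5 and 4, and the one from 22128802 to 22215244 (86443 bp, score 1.14) was 6 and 4. The tenth, on 2L from 7892998 to 7977856 (84859 bp, score 1.48), was whole in both.

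Both replicate lists covered nearly all of the wide domains. Clusters of replicate 1 covered 95.5% of their bases and clusters of replicate 2 95.6%, a mean of 95.5 ± 0.126% (SD, n = 2). The lowest cover of a domain was 69.0% in replicate 1 and 66.3% in replicate 2, and the median was 97.0 and 97.1%. In both replicates 206 domains were at least 95% covered. By contrast, 24 were under 80% covered in either replicate and 3 in both. Bases covered in neither replicate came to 246 kb, or 1.82% of the domains. All 280 clusters of 20 kb and over in replicate 1 and all 285 in replicate 2 overlapped a wide domain of the combined list, and none overlapped more than 1. In the other direction, 242 domains held a cluster of 20 kb or more in both replicates, and 78 held one in neither. The combined list may have been made from the same reads, so these figures are no independent check of the domains.

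Many domains were broken in a replicate although their cover was high. Each replicate called 187 of the 383 as a single cluster (48.8%), but these were partly different domains. A domain is called whole when a single cluster overlaps it, whatever share of the domain that cluster covers. By this measure 142 were whole in both (37.1%), 45 in replicate 1 alone and 45 in replicate 2 alone. These counts depend on the joining distance: with replicate clusters less than 1000 bp apart joined, a mean of 315.5 domains per replicate and 277 in both were whole. With only the upper 50% of replicate clusters by score, 222 had a single cluster in both. Cover of all 383 domains then fell to 88.7% (mean of both replicates), as dropped clusters left bases uncovered. A single cluster under this filter therefore need not mean a less broken domain, and cover of the 222 alone was not measured. In the lists as deposited, with no joining or score filter, 151 domains (39.4%) were split in both. Over all 6056 enriched regions of the combined list, 51.1% were a single cluster in both replicates. That figure includes regions found in neither replicate, and among the 639 regions of 10 to 20 kb on the 5 arms it was 52.1%. The lower share among wide domains was not tested. Replicate 1 divided 97 domains into 2 clusters, 57 into 3 and 42 into 4 or more. Replicate 2 divided 94, 58 and 44 in the same way. The number of clusters was equal in both replicates for 210 domains, higher in replicate 1 for 90 and higher in replicate 2 for 83. Across domains the numbers had a Spearman's rho of 0.62 and the covers one of 0.53 (383 domains of the same 2 libraries).

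**Figure D2:**
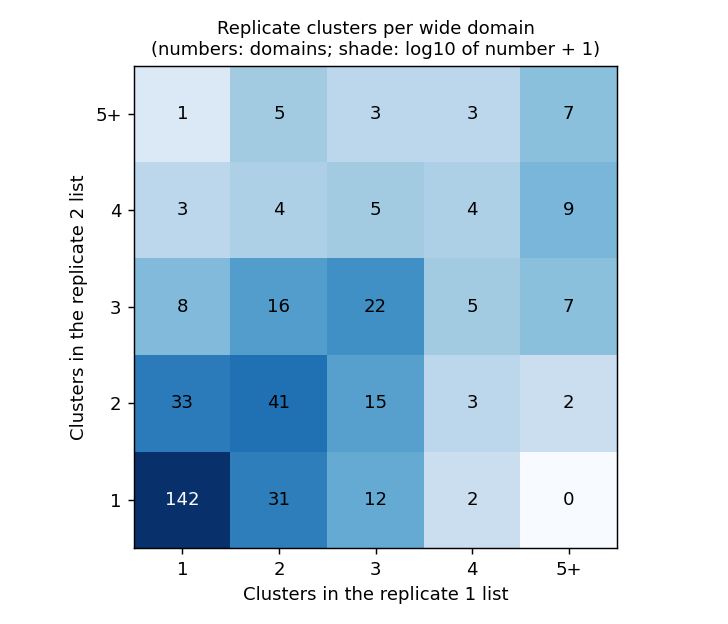
Number of wide domains (printed in each cell, shade on a log scale) by the number of replicate 1 clusters (x axis) and of replicate 2 clusters (y axis) that overlap them. The cell of 142 domains that are whole in both is the largest, and most other domains lie on or near the diagonal.

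Whole domains had higher scores. Those whole in both replicates had a median score of 1.47 in the combined list, those whole in a single replicate 1.30, and those split in both 1.12. Their median widths were alike, at 29106, 30210 and 30655 bp. Ordered by score in 4 classes of near equal size, the number whole in both went up in each step: 9 of the 96 domains with scores of 0.625 to 1.07, then 31 of 96, 40 of 95, and 62 of the 96 domains with scores of 1.51 to 2.23. Such classes by width gave no such order, with 46 of 96, 30 of 96, 35 of 95 and 31 of 96 from the narrowest to the widest. The score of the best cluster within a domain had a Spearman's rho of 0.94 between the replicates and stood at a median percentile of 88.0 in the replicate 1 list and 87.9 in the replicate 2 list. Score and breaks come from calls on the same libraries, and none of this was tested.

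**Figure D3:**
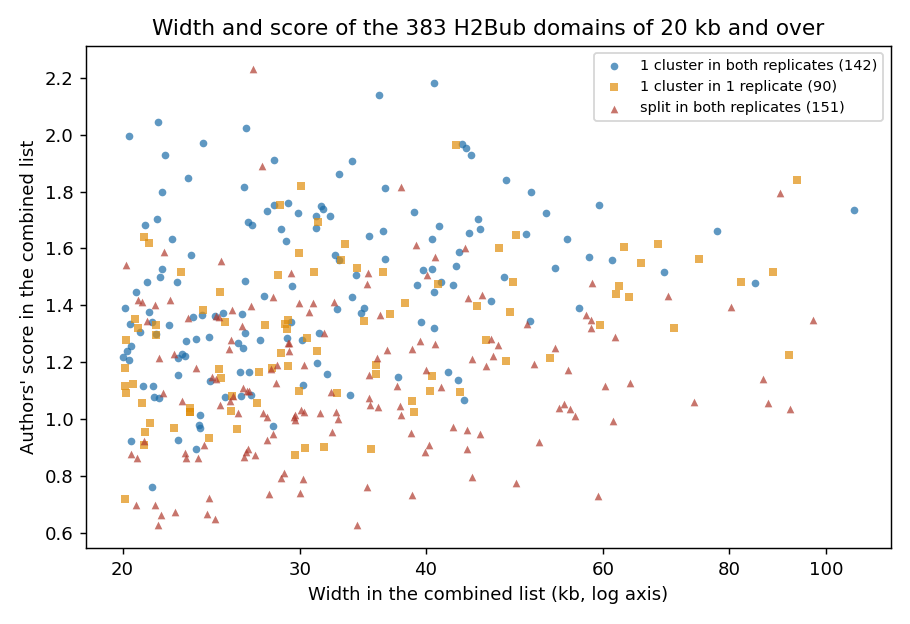
Authors' score in the combined list (y axis) against width in kb (x axis, log) for the 383 domains, with symbols for whole in both replicates (142), whole in 1 replicate (90) and split in both (151). Split domains lie mostly in the lower part of the score range at every width.

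The most broken domain was on 3L from 17171010 to 17230382 (59373 bp, score 0.730). It was 11 clusters in replicate 1 and 8 in replicate 2, with covers of 79.2 and 92.0%. The domain on 3L from 19136572, described above, was second with 14 clusters over both lists. The 2R domain from 11312480 to 11342510 (30031 bp, score 0.738) was 6 and 7 clusters, and the 3L domain from 9540130 to 9564810 (24681 bp, score 0.649) 7 and 6. The fifth, on 2L from 19673108 to 19701036 (27929 bp, score 0.735), was 6 and 5 clusters. Of these 5, 4 had scores between 0.649 and 0.738.

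Low cover mostly went with low scores too. The lowest mean cover was that of the 2L domain from 4067960 to 4089494 (score 0.696), with 69.4% in replicate 1 and 74.8% in replicate 2. The 3L domain from 9540130 had 74.4 and 69.9%. The 3R domain from 22302658 to 22336802, which had the lowest score of all (0.625), had 74.0 and 75.9% in 5 and 6 clusters. A different case was the 2L domain from 1255974 to 1279802 (23829 bp, score 0.979), a single cluster in each replicate that covered 84.2 and 69.3% of it, with most of the missing part at its end, where the clusters fell short by 3676 and 7267 bp, against 90 and 38 bp at its start. The fifth, on 2L from 10544654 to 10583416 (score 0.733), was covered to 88.0% in replicate 1 and 66.3% in replicate 2.

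The breaks inside domains were short and often differed between replicates. Replicate 1 had 382 inner breaks with a median of 379.5 bp, and replicate 2 had 375 with a median of 410 bp. Under 500 bp were 217 and 204 of them, and 23 and 28 were 2 kb or longer. A break in the other replicate overlapped 131 of the 382 breaks in replicate 1 (34.3%) and 131 of the 375 in replicate 2 (34.9%). Longer breaks recurred more often. Of the breaks under 500 bp, 47 of 217 in replicate 1 and 51 of 204 in replicate 2 met a break in the other list. Of those from 500 bp to under 1 kb, 49.4 and 38.1% did. Of those from 1 to under 2 kb it was 50.8 and 47.5%, and of those of 2 kb and over 56.5 and 71.4% (13 of 23 and 20 of 28). A longer break also meets another more easily by its length alone, and this was not tested. Shared breaks came to 64.2 kb in 99 domains.

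The longest shared break, 3905 bp on 3L from 22200680 to 22204584, lay in the domain from 22128802 to 22215244. It was 4204 bp long in replicate 1 and 4056 bp in replicate 2. The same domain held the third longest, 2447 bp from 22207791 to 22210237, cut from breaks of 4296 and 2447 bp. Both lay toward the end of a domain of 86443 bp. Between them in length was a shared break of 3197 bp on 3R from 22308650 to 22311846, in the domain with the lowest score, where the breaks measured 3233 and 4328 bp. In a split domain the widest cluster still held a median of 65.3% of the domain in replicate 1 and 65.8% in replicate 2. That cluster was itself 20 kb or wider in 101 and 103 of the 196 domains split in each list.

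More uncovered bases lay at the ends of domains than in inner breaks: 354 kb against 263 kb in replicate 1 and 326 kb against 266 kb in replicate 2. The outermost 2% of the domain was covered to 60.3% at the start and 61.0% at the end in replicate 1, and to 62.7 and 64.3% in replicate 2. Through the middle 80% of the width, cover stayed between 94.7 and 98.7% in replicate 1 and between 94.3 and 99.2% in replicate 2. Replicate ends lay a median of 147 bp inside the combined end in replicate 1 and 127 bp in replicate 2. They fell short by more than 1 kb at 120 and 107 of the 766 ends. Where a domain was whole in both, the starts of the replicate clusters differed by a median of 134.5 bp and the ends by 127 bp, and in 88 of 142 both bounds lay within 500 bp.

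**Figure D4:**
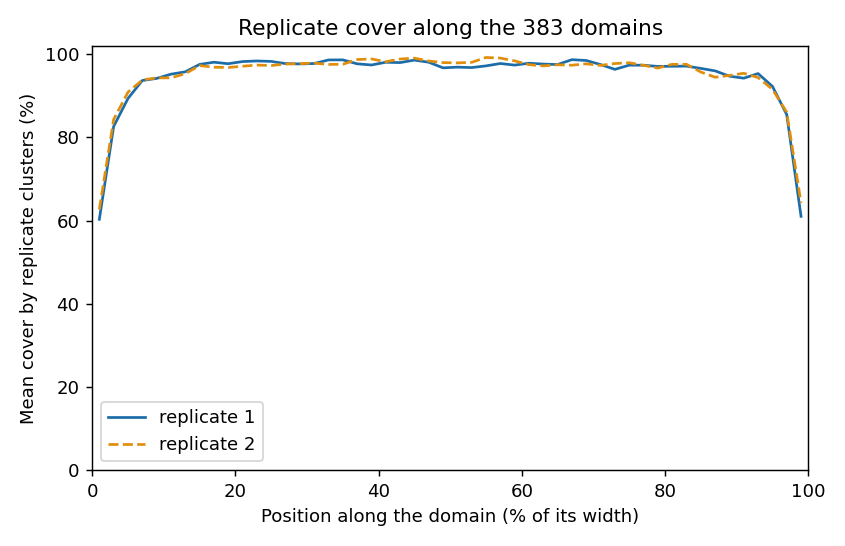
Mean cover of the 383 wide domains by replicate clusters (y axis, %) along the domain scaled to its width (x axis, %, 50 bins of 2%), for replicate 1 (solid) and replicate 2 (dashed). Cover is above 94% through the middle 80% in both and falls to 60 to 64% in the outermost bins.

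Some replicate clusters ran past the bounds of a combined domain, at 1 or both ends of 54 domains in replicate 1 and 85 in replicate 2. Most of these excesses were short, and 11 exceeded 1 kb. The 5 longest were all in replicate 2 and all on X: 10327 bp beyond the end of the domain from 11256594 to 11283310, 7765 bp before the start of the one from 1774092 to 1794820, 3554 bp before that from 8822588 to 8843570, 2528 bp before that from 12714342 to 12763136, and 2219 bp beyond that from 4214810 to 4239372. In the same order, the next combined region lay 135, 63, 113, 659 and 95 bp from the bound that was passed. Each of these 5 clusters therefore reached into a neighbouring combined region, and its excess is not all outside the combined regions. The longest excess in replicate 1 was 1464 bp, on 2L, where the next combined region lay 1 bp away.

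The replicates differed most on X. On X, replicate 1 covered 91.9% of the bases of the 66 domains and replicate 2 covered 95.4%. On the 4 autosomal arms the 317 domains were covered to 96.1% in replicate 1 and 95.7% in replicate 2, and no autosomal arm was below 95.8% in replicate 1. Cover was lower in replicate 1 than in replicate 2 for 51 of the 66 X domains, against 157 of the 317 autosomal ones. Under 90% covered were 27 X domains in replicate 1 and 8 in replicate 2, against 30 and 49 of the autosomal domains. Each replicate had 57 such domains in all, so the totals hid opposite distributions over the arms. A loss of more than 10 percentage points in replicate 1 relative to replicate 2 was seen in 12 X domains and 6 autosomal ones, and the reverse in 0 X domains and 15 autosomal ones.

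The 3 domains with the strongest loss of cover in replicate 1 were all on X. That from 999478 to 1029102 (score 1.01) was covered to 69.0% in 5 clusters of replicate 1 and to 94.99% in 3 of replicate 2. That from 8822588 to 8843570 (score 0.908) had 70.4% in 4 clusters and 92.6% in 1. The third, from 581136 to 607170 (score 1.02), had 75.7% in 2 clusters and 96.0% in 3. The opposite extremes were autosomal: the 2L domain from 10544654 named above, the 3R domain from 3647486 to 3671734 with 90.9% in replicate 1 and 73.7% in replicate 2, and the 2L domain from 21100964 to 21121890 with 96.6 and 79.7%.

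X domains were also split more often, in both replicates. Single clusters were 18 of the 66 X domains in replicate 1 (27.3%) and 22 in replicate 2 (33.3%), against 169 and 165 of the 317 autosomal domains (53.3 and 52.1%). Whole in both were 13 X domains (19.7%) and 129 autosomal ones (40.7%), and the 4 autosomal arms taken singly ranged from 38.8 to 41.9%. Median scores were nearly equal, 1.28 on X and 1.29 on the autosomal arms. The pattern was not particular to the widest regions. In regions of 10 to 20 kb, X was covered to 84.2% in replicate 1 and 89.7% in replicate 2, against 90.8 and 92.2% on the autosomal arms, and 36.1% of 119 X regions and 55.8% of 520 autosomal ones were whole in both. With a single library for each replicate, a difference between them on X has no replicate of its own, and no test was made.

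**Figure D5:**
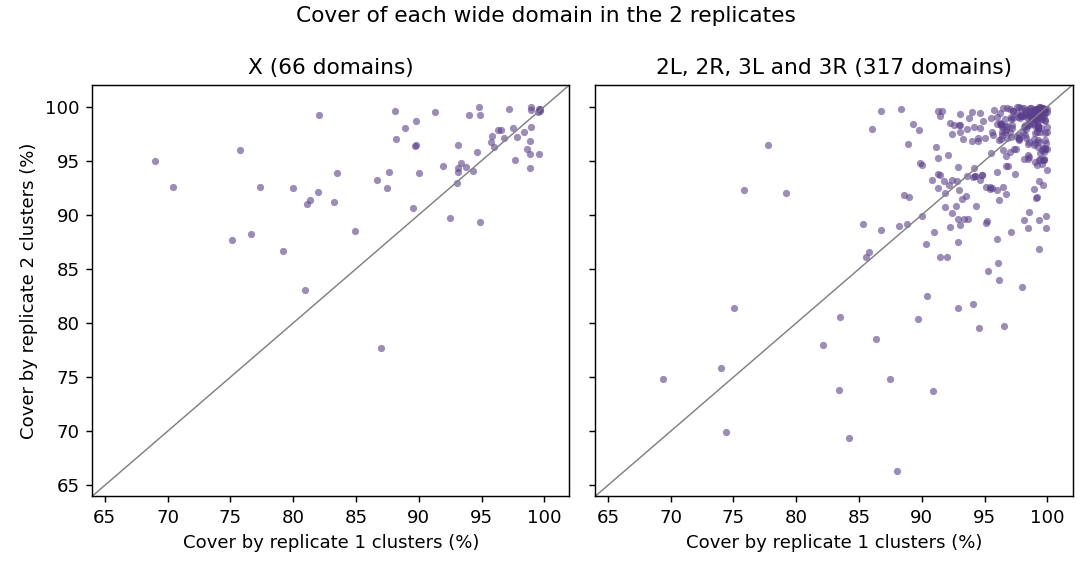
Cover of each wide domain by clusters of replicate 1 (x axis, %) and replicate 2 (y axis, %), for the 66 domains on X (left) and the 317 on the autosomal arms (right), with the line of equal cover. On X 51 of 66 points have lower cover in replicate 1, while on the autosomal arms 157 of 317 do.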

How the data were processed

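The submitters' processing notes name Bowtie 0.12.7, and per the file headers the genome is FlyBase release 5. The authors deposited a score for each region along with its bounds. How regions were called, filtered by width or threshold, set against the inputs, scored and combined is not given in the sources used here. Sequencing depth is unknown, so no error of a score could be given. From these lists, coordinates were taken as 1-based and inclusive, regions typed as depletion were left out, and a replicate cluster belonged to a domain when they overlapped by at least 1 bp. Cover is the share of a domain's bases inside clusters of a replicate list, given as mean ± SD over both replicates. An inner break is an uncovered stretch that touches neither end of the domain. Score percentiles are taken within a list. No test was run, because width in the combined list chose the domains and the replicate lists may rest on the same reads. The interval code was tested on simulated data. The domains and the quantities were chosen with earlier results of these data known. Named by rule were the 10 widest and the 10 highest-scoring domains, the 5 with most replicate clusters, the 5 with the lowest mean cover, the 3 longest shared breaks, the 5 closest pairs and the 5 regions on each side of the width minimum. The longest stretches, runs, windows, reaches past a bound and the X domains that differed most between replicates were chosen after their values were seen. Calculations used Python 3.11.15, NumPy 2.4.6, pandas 2.3.3 and SciPy 1.17.1, and figures matplotlib 3.10.9.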

Additional observations from a re-analysis of the deposited data

How the results depend on the processing

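No paired analysis was possible because only the ChIP samples have region lists here and nothing was tested between groups. A width minimum of 15 kb gave 599 domains, 94.8% of bases covered (mean of both replicates), 245 whole in both and a median distance of 106700 bp. A minimum of 30 kb gave 193 domains, 8870603 bp, 96.4%, 66 whole in both and 399200 bp. The counts and distances follow from the number of regions admitted, and the cause of the change in cover was not tested. Joining regions less than 1000 bp apart gave a median distance of 123641 bp and 514 domains. Joining them in the replicate lists alone gave 96.3% cover, 315.5 domains whole per replicate and 277 whole in both, since short breaks are then filled. The upper 50% by score gave a median distance of 178167 bp, and in the replicate lists 88.7% cover. There 222 domains had a single cluster in both, since dropped clusters leave fewer in a domain and more bases uncovered. Percentiles within the same arm gave a median of 88.81. Alternatives chosen after seeing the data, autosomal domains alone and X domains alone, gave 95.9 and 93.7% cover. Leaving out each replicate in turn gave 95.5 to 95.6% cover and 187 to 187 whole domains. Bounds and scores rest on an unknown depth, and mappability was not measured.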

Other observations

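All 6056 starts and all 6056 ends of the enriched regions in the combined list were even numbers, those of the wide domains among them. In the replicate lists 2753 of 5440 starts and 2803 of 5597 starts were even. The bounds of the combined domains therefore have a step of 2 bp, which is small beside the median distance of 127 to 147 bp between replicate and combined ends.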
